A study of Homo sapiens with 5 samples.

Results

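The 49 genes described here encode the machinery of DNA replication and the factors that set up S phase, from origin licensing to nucleotide supply and histone handling. They were taken by symbol from a list that, like the 2-fold threshold used below, was chosen with earlier results of these data known. All 49 of the 49 were found among the 26364 gene symbols and had a value above 0 in every library. RNA came from SH-SY5Y (CRL-2266), an established human neuroblastoma line used as a model of neuronal differentiation, and was read as 3' end libraries. There were 5 groups with 1 library each. The libraries siControl, siSTAU1 and siUPF1 came from cells with a control siRNA or with siRNA to the gene in the name, all in medium with 10% serum and 1% antibiotics. The other 2 libraries are titled Nondifferentiation and Differentiation, and their labels list the same medium plus 50 uM retinoic acid for both. The column of the Nondifferentiation library is headed proliferation, and the labels name no length of treatment. STAU1, a binder of RNA duplexes, can recruit the decay helicase UPF1 to mRNAs, and the study asked which transcripts were higher both after their depletion and with differentiation. With 1 library a group there is no replicate to test against. Values, sizes of difference and estimated counting errors are therefore given without p-values, and values by library follow the order siControl, siSTAU1, siUPF1, Nondifferentiation and Differentiation.

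Replication starts from origins that are licensed before S phase. The origin recognition complex, CDC6 and CDT1 load the ring-shaped MCM helicase on DNA, and geminin (GMNN) blocks CDT1 once S phase has begun. CDC45 and the GINS complex then join the ring to form the active helicase, polymerase alpha with primase lays down primers, the RFC complex loads the PCNA clamp, and polymerases delta and epsilon extend the strands. Many of these genes are transcribed under E2F factors, which the retinoblastoma protein holds in check outside the cycle, and retinoic acid is widely used to slow the division of neuroblastoma cells.

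The estimated depth lay between 15800000 and 18700000 reads in 4 libraries and was 31500000 in Differentiation. The targeted mRNAs matched the labels: STAU1 stood at a log2 value of 11.34 in siSTAU1 and between 12.86 and 12.89 in the other 4 libraries, and UPF1 at 9.20 in siUPF1 and between 10.62 and 10.74 elsewhere. Of 10 noradrenergic neuroblastoma markers, 10 were above 0 in each library except Differentiation, where MYCN was listed at 0. Of 10 epithelial markers, 10 were above 0 in siSTAU1, 9 in Differentiation, 8 in siUPF1, 5 in Nondifferentiation and 4 in siControl, with summed levels, in the order of these counts, of 658, 153, 156, 63.2 and 64.4 linear units. In no library did any of the 10 reach a log2 value of 7.81, the floor for measured genes given below. In bulk RNA a lower value from fewer cells in S phase and one from less RNA per cell cannot be told apart.

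Nearly the whole replication list was lower in Differentiation than in Nondifferentiation. Of the 49 genes, 43 were at least 2-fold lower and 0 were at least 2-fold higher, beside 14.4% of all genes above 0 in both libraries lower and 14.1% higher. The median log2 difference of the 49 was -1.86, which is 3.64-fold lower, against 0 over those 15305 genes. A gene is called measured when the mean of its 5 log2 values reached 7.81, the median of all nonzero values. Of the 49, 42 were measured, and of these 37 were 2-fold lower, beside 10.9% of 8306 measured genes, with a median of -1.96 against -0.023. No member was 2-fold higher, beside 7.61% of measured genes. Of the 42, 35 lay among the 831 measured genes with the lowest differences. The 7 genes under the floor were GINS4, PRIM1, PRIM2, POLE2, CCNE1, CCNE2 and CHAF1B.

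For these 49 genes Differentiation also stood apart when all 5 libraries were compared. In 48 of 49 genes the Differentiation value was the lowest of the 5, and in 46 the gap below the other 4 exceeded their own range. The exceptions to the second count were RFC1, CCNE1 and SLBP. Neither count was made over all genes, so both describe these 49 only. The range over the other 4 libraries had a median of 0.32 on the log2 scale and ran from 0.06 for RPA3 to 0.78 for PRIM1. The 49 differences all exceeded 2 estimated counting SE, which run from 0.03 for MCM7 to 0.50 for PRIM1 and cover counting error only. This mark is easily passed: 25 of the 49 genes exceeded it in siControl against Nondifferentiation. Against siControl, 25 exceeded it in siUPF1 and 21 in siSTAU1. The share over all genes was not computed. Ribosomal protein genes had a median of -0.62 in this pair. Set against them in place of the deposited scale, 26 of the 42 measured genes were 2-fold lower, beside 4.36% of all measured genes, and the median was -1.33. Markers of other cells also differed in this pair: the summed level of 10 mesenchymal markers was 5724 linear units in Differentiation and 2233 in Nondifferentiation, with DCN and PRRX1 listed at 0 in both. The higher sum rests on COL3A1 (log2 difference 2.45), PDGFRB (2.38) and FBN1 (1.27), while of the 8 genes above 0 in both 4 were lower, with LUM at -2.23 and COL1A2 at -1.97, and the median of the 10 was 6.03 against 6.26. The summed level of the 10 noradrenergic markers was 41808 against 51253, and that of 7 blood markers 280 against 131, mostly from HBB at 7.82 against 6.75. Their part in the lower replication genes was not tested.

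**Figure D1:**
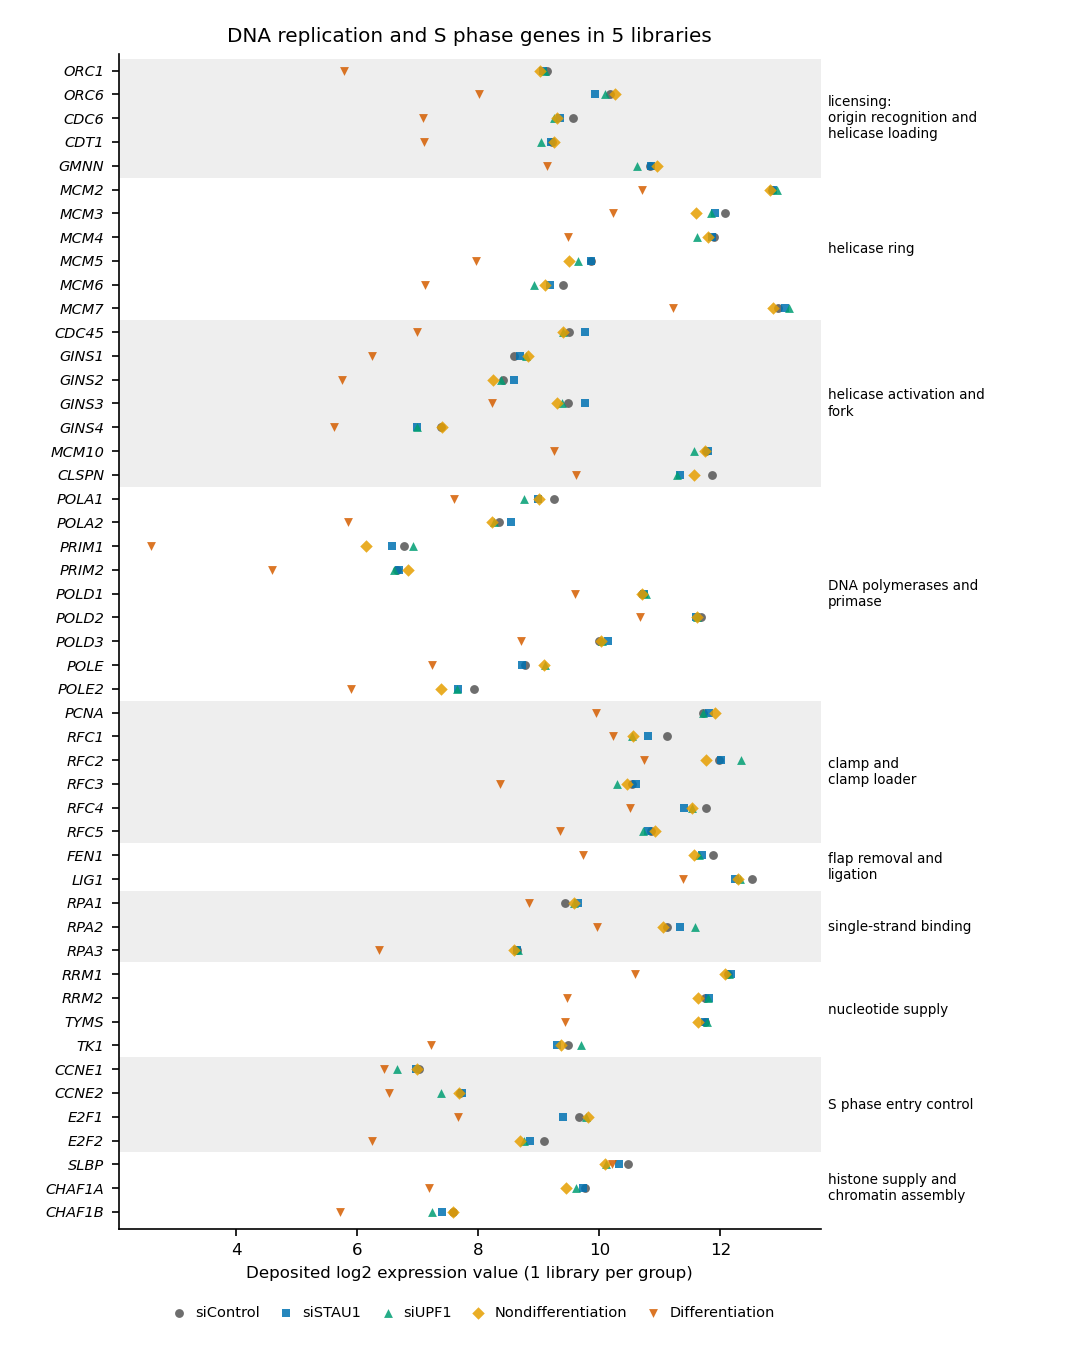
Deposited log2 value (x axis) of each of the 49 genes (rows, grouped by role) in the 5 libraries, 1 point per library. The Differentiation points lie left of the other 4 in 48 of 49 genes, SLBP being the exception.

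Because 48 of the 49 genes were lower in Differentiation, their promoters were searched for the E2F site, spelled TTTCCCGC, TTTGGCGC, TTTCGCGC or TTTGCCGC on either strand, in RefSeq windows of 250 bases before to 50 after the start (build GRCh38.p14). Of the 49 genes 42 had a window, and 21 of these 42 held a match, which is 50.0%, beside 3.99% of the 27305 genes in the table and 7.57% of the 6512 measured genes found there. The genes without a window were MCM4, MCM5, GINS4, POLD3, RPA2, RPA3 and CCNE2. The 21 genes with a match had a median difference of -1.98 in Differentiation, and the 21 without one had -1.85, so the 2 medians lie close to each other. The ranges were not the same: 20 of the 21 with a match were 2-fold lower, with differences from -2.58 to -0.90. Of the 21 without one 16 were, with differences from -3.56 to 0.11, ends set by PRIM1 and SLBP alone. PRIM1 rests on about 10 reads in Differentiation, and the gap between the counts of 20 and 16 was not tested. The windows without a match include those of the genes with the lowest differences, PRIM1 and ORC1, as well as those nearest to level. The windows printed here show 1 gene with a match from each of 6 roles, followed by 3 genes without one: ORC1, with a difference of -3.24, and RFC1 and SLBP, with -0.32 and 0.11. Each runs from 160 bases before the start to 20 bases into the transcript, 5' to 3' on the strand of the gene, with the E2F letters in capitals.
CDC6, chr17:40287719-40287898, plus strand: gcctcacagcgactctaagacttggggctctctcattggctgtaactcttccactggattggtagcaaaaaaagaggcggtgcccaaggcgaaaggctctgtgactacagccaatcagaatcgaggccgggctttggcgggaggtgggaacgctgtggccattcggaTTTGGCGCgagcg
MCM6, chr2:135876424-135876603, minus strand: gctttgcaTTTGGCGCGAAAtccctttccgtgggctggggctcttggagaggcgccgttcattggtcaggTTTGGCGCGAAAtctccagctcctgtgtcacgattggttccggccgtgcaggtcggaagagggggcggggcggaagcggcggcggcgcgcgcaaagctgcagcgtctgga
GINS2, chr16:85688935-85689114, minus strand: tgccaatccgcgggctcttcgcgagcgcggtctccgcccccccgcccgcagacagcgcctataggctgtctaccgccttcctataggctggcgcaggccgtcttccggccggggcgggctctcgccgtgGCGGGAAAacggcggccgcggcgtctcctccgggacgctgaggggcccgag
POLA2, chr11:65261802-65261981, plus strand: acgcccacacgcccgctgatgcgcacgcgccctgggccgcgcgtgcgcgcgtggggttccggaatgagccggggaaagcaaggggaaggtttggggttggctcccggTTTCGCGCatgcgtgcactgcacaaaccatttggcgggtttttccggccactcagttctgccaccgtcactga
RFC3, chr13:33817989-33818168, plus strand: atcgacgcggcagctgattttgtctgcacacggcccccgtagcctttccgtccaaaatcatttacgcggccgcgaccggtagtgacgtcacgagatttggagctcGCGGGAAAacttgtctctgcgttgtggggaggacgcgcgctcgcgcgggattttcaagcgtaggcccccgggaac
E2F1, chr20:33686366-33686545, minus strand: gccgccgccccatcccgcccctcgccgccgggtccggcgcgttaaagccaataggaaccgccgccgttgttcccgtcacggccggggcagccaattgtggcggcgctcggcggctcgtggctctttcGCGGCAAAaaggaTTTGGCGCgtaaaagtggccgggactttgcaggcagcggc
ORC1, chr1:52404404-52404583, minus strand: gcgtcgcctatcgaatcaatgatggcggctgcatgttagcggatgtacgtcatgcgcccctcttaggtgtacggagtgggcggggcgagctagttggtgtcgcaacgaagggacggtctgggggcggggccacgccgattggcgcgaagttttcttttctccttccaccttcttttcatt
RFC1, chr4:39366343-39366522, minus strand: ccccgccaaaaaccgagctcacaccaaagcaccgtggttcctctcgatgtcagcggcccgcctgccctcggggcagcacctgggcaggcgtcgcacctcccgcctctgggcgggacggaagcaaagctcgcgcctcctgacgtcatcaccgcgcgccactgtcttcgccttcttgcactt
SLBP, chr4:1712300-1712479, minus strand: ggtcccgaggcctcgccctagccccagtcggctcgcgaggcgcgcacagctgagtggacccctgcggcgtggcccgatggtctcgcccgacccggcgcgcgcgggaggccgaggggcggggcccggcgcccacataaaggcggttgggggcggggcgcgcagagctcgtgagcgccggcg

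In CDC6 the match lay from base 8 to base 15 of the transcript, and in GINS2 from base -31 to base -24 before it. MCM6 held 4 matches as 2 pairs, in each of which a site on 1 strand overlaps a site on the other. E2F1, which encodes an E2F factor itself, held 2, 1 on each strand. The CCAAT box, CCAAT on either strand, was in 25 of the 42 windows (59.5%), beside 44.6% of measured genes. The CHR letters TTTGAA, a motif typical of mitotic promoters, were in 1 of the 42, RRM1 (2.38%), beside 14.3% of measured genes and 10 of 16 mitotic genes with a window. A match is a description of letters, and no match says only that these letters are not in the window.

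**Figure D2:**
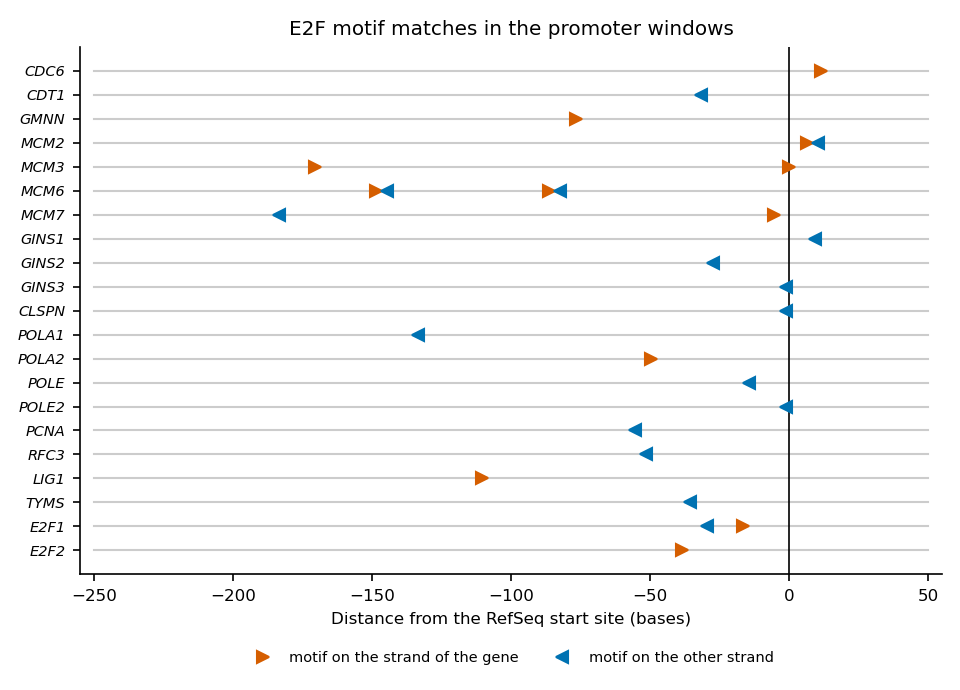
Position of each E2F match (x axis, bases from the RefSeq start site) in the 21 genes that hold one (rows); triangles point right for the strand of the gene and left for the other strand. Most matches lie close to the start, and the farthest upstream are in MCM7, MCM3, MCM6, POLA1 and LIG1.

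Licensing factors were among the lowest. ORC1, the largest subunit of the origin recognition complex, stood at 9.13, 9.07, 9.10, 9.01 and, in Differentiation, 5.77. Its difference of -3.24 (counting SE 0.17), or 9.47-fold lower, was the lowest of the 42 measured genes and the 16th lowest of all 8306. The first 4 libraries were within 0.12 of each other, and Differentiation stood far below them. ORC6, the smallest subunit, stood at 10.17, 9.93, 10.09, 10.25 and 8.01, a difference of -2.24. CDC6, the ATPase that helps load the helicase, stood at 9.56, 9.34, 9.25, 9.30 and 7.09, a difference of -2.21, and its partner CDT1 at 9.21, 9.20, 9.04, 9.25 and 7.11, a difference of -2.14. Geminin, the inhibitor of CDT1, was also lower, at 10.84, 10.84, 10.62, 10.95 and 9.14, but by less, with -1.81. The loading factors and their inhibitor were thus lower together. The other origin recognition subunits lay nearer to level: ORC2 had -0.16, ORC3 -0.06, ORC4 0.26 and ORC5 -0.39, although ORC3 and ORC5 lay below the floor.

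All 6 genes of the MCM ring were at least 2-fold lower, by unequal amounts. MCM4 stood at 11.89, 11.86, 11.62, 11.79 and 9.48, the lowest difference of the ring at -2.31 (counting SE 0.05). MCM3 stood at 12.08, 11.90, 11.84, 11.59 and 10.23, the highest difference at -1.36 (counting SE 0.04). Between these lay MCM2 at -2.10, MCM6 at -1.98, MCM7 at -1.65 and MCM5 at -1.54. The distance between MCM4 and MCM3 exceeds their counting errors, though not necessarily the spread between cultures, which is unknown.

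Of the 7 genes that turn the ring into a working helicase or act with it at the fork, 4 had lower differences than any gene of the ring: CDC45, GINS1, GINS2 and MCM10. CDC45 stood at 9.50, 9.76, 9.39, 9.40 and 6.98, a difference of -2.42. The GINS subunits differed from each other. GINS1 stood at 8.59, 8.69, 8.78, 8.83 and 6.25, with -2.58, and GINS2 had -2.50. GINS4 had -1.79, from 7.39 in Nondifferentiation to 5.61 in Differentiation. GINS3 stood at 9.49, 9.76, 9.39, 9.31 and 8.23, with -1.08. GINS3 was thus the least lowered of a complex whose 4 proteins work in equal numbers. MCM10, which helps activate the helicase, stood at 11.77, 11.79, 11.56, 11.75 and 9.24, with -2.51. CLSPN, which encodes claspin, a fork protein needed for checkpoint signalling, stood at 11.85, 11.33, 11.28, 11.57 and 9.62, with -1.95. Its siControl value was the highest of the 5.

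Polymerase genes split by subunit. PRIM1, the catalytic primase subunit, stood at 6.76, 6.58, 6.92, 6.14 and 2.58. Its difference of -3.56 was the lowest of all 49 genes, but it rests on about 68 and 10 reads and its counting SE is 0.50. Its last exon is shared on the same strand with NACA, which stood at 13.55 and 13.11, so its value is uncertain. PRIM2, the second primase subunit, had -2.26 from about 110 and 39 reads. POLA2, the accessory subunit of polymerase alpha, stood at 8.35, 8.54, 8.26, 8.23 and 5.84, with -2.39, while the catalytic POLA1 lay between 8.75 and 9.25 in the first 4 libraries and at 7.59 in Differentiation, with -1.41. For polymerase epsilon the catalytic POLE had -1.85 and POLE2 -1.49. The polymerase delta genes were lowered least: POLD3 had -1.31 and POLD1 -1.11, and POLD2 stood at 11.68, 11.60, 11.61, 11.61 and 10.67, with -0.94, under 2-fold. The delta accessory subunit POLD4, which was not among the 49 and is named after its value was seen, went the other way, at 6.70, 7.66, 7.48, 6.97 and 9.51, a difference of 2.54. Its mean over the 5 libraries, 7.66, lies just below the floor.

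The clamp and its loader ranged from nearly level to 4.29-fold lower. PCNA, the sliding clamp, stood at 11.71, 11.82, 11.71, 11.91 and 9.94, with -1.96. RFC3 stood at 10.54, 10.60, 10.29, 10.46 and 8.36, the lowest of the loader at -2.10, followed by RFC5 at -1.56, RFC4 at -1.03 and RFC2 at -1.02. RFC1, the large subunit, stood at 11.12, 10.80, 10.54, 10.55 and 10.23, with -0.32. RFC4 and RFC2 lie just past the 2-fold line, and the gap of RFC1 below the other 4 libraries was smaller than their own range. RFC4 overlaps EIF4A2 at its last exon on the other strand, and EIF4A2 stood at 11.04 in Nondifferentiation and 11.50 in Differentiation, so reads of both genes may be mixed if counting took no account of strand.

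Okazaki fragment enzymes and RPA also differed within their sets. The flap nuclease FEN1 stood at 11.88, 11.70, 11.64, 11.57 and 9.72, with -1.85, and DNA ligase LIG1 at 12.52, 12.25, 12.32, 12.29 and 11.38, with -0.90. Of the single-strand binding complex RPA, the smallest subunit RPA3 stood at 8.64, 8.64, 8.66, 8.60 and 6.35, with -2.24, while RPA2 had -1.09. The large subunit RPA1 stood at 9.43, 9.65, 9.58, 9.58 and 8.84, with -0.75. LIG1 and RPA1 were under 2-fold.

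Nucleotide supply was lower throughout. RRM2, the cell cycle-regulated subunit of ribonucleotide reductase, stood at 11.74, 11.81, 11.80, 11.63 and 9.46, a difference of -2.17, and RRM1, the large subunit, at 12.13, 12.18, 12.14, 12.08 and 10.59, with -1.48. RRM2B, the alternative small subunit that is induced by p53 and was not among the 49, stood at 9.63 in Nondifferentiation and 9.61 in Differentiation. Thymidine kinase TK1 stood at 9.48, 9.31, 9.70, 9.37 and 7.22, with -2.15. Thymidylate synthase TYMS stood at 11.75, 11.75, 11.78, 11.64 and 9.43, with -2.20. ENOSF1, which overlaps TYMS tail to tail on the other strand, stood at 12.72 and 10.50 in this pair, with -2.21, and without strand these genes cannot be told apart.

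Of the regulators of S phase entry, E2F1 and E2F2 were lower by more than the cyclin E genes. E2F1 stood at 9.67, 9.40, 9.78, 9.81 and 7.67, a difference of -2.14, and E2F2 at 9.09, 8.84, 8.75, 8.69 and 6.24, with -2.45. CCNE2 had -1.15, from 7.68 to 6.52, and CCNE1, the other cyclin E, stood at 7.02, 6.96, 6.66, 6.98 and 6.45, with -0.54. Not all E2F genes were lowered as much: outside the 49, E2F3 had -0.44 and E2F4 -0.35. Both cyclin E genes were low in all libraries, and the CCNE1 difference is 1.45-fold. Of the chromatin assembly subunits, which place histones on new DNA, CHAF1A stood at 9.76, 9.72, 9.61, 9.45 and 7.18, with -2.27, and CHAF1B had -1.86. SLBP, which binds the stem-loop of replication-dependent histone mRNAs, was the only gene of the 49 with a positive difference. It stood at 10.48, 10.33, 10.11, 10.10 and 10.21, a difference of 0.11 (counting SE 0.06), with Differentiation inside the range of the rest.

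Related genes outside the 49 were read from lists of other replication factors, a published S phase signature, mitotic genes and the RB and E2F axis. Of 36 measured other replication factors 26 were 2-fold lower and 0 higher, with a median of -1.28. The lowest were RNASEH2B, a subunit of ribonuclease H2, at -2.41 and CDC25A, the phosphatase that activates CDK2, at -2.37, and the highest were RNASEH2C at 0.29 and ORC4 at 0.26. RNASEH2A, the catalytic subunit, had -2.19, so the 3 subunits of this enzyme did not share a direction. Of 20 measured signature genes that are not among the 49, 16 were 2-fold lower, with EXO1 at -2.66 and UBR7 at -0.37. Of the 49 genes, 22 belong to that signature, and 19 of these were measured with a median of -1.95, against -2.10 for the 23 measured genes outside it; over all 49 the order turned, with -1.91 for the 22 and -1.85 for the 27 outside it. The 20 mitotic genes were all 2-fold lower, with a median of -2.48, from CDC20, the activator of the anaphase-promoting complex, at -3.93 to KIF20A, a kinesin of cytokinesis, at -1.63.

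Genes of the RB and E2F axis, which decides on S phase entry, had differences of both signs. Of 17 measured genes, 4 were 2-fold lower and 0 higher, with a median of -0.56. The lowest measured were E2F8 at -1.72 and TFDP1, the dimer partner of E2F factors, at -1.29. E2F7, with a mean of 7.66 just under the floor, had -2.79, from about 309 reads to 75, and cyclin D1 (CCND1) had -1.08. RB1, which encodes the retinoblastoma protein, stood at 9.85 and 9.99, with 0.14. The highest were TFDP2 at 0.65 and the kinase inhibitor CDKN1B at 0.44. CDKN1A, the inhibitor induced by p53, was at 11.66 in Nondifferentiation and 10.89 in Differentiation.

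**Figure D3:**
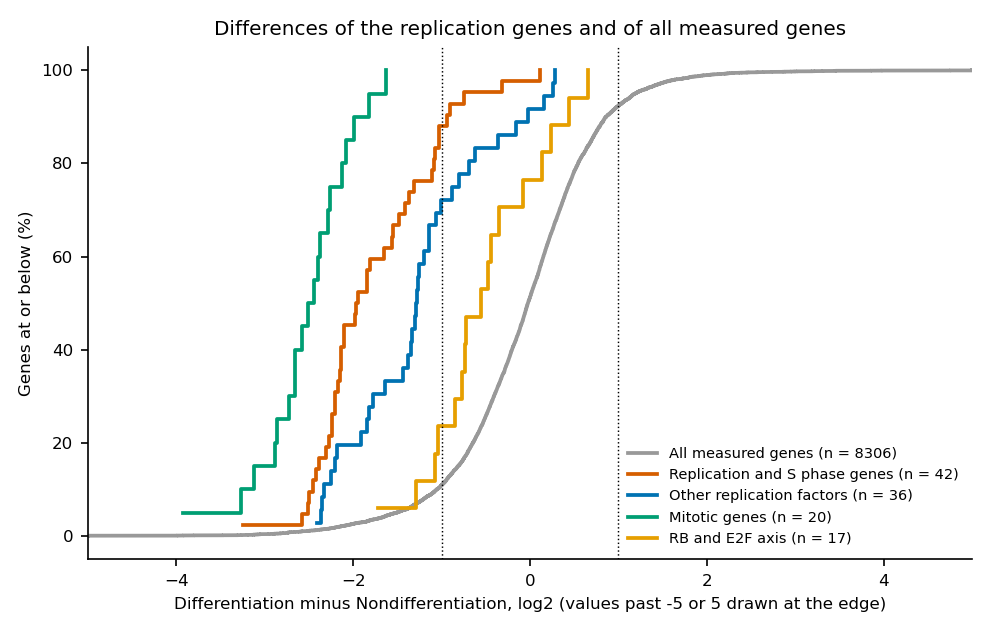
Share of genes (y axis, %) at or below each log2 difference between Differentiation and Nondifferentiation (x axis) for measured genes of each set; dotted lines mark 2-fold. Mitotic genes lie farthest left (median -2.48), then the replication and S phase genes (-1.96), other replication factors (-1.28) and the RB and E2F axis (-0.56), while all 8306 measured genes centre near 0.

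In the knockdown libraries the replication genes stayed near their siControl values. Of the 42 measured genes 0 were 2-fold lower or higher in siSTAU1, beside 0.0602% of measured genes lower and 0.0482% higher. In siUPF1 0 were 2-fold lower or higher as well, beside 0.0602% lower and 0.301% higher. These backgrounds are so low that a count of 0 is not a result about the replication genes. The medians were -0.0044 in siSTAU1 and -0.093 in siUPF1, against 0.0066 and -0.010 over all measured genes. At 1.5-fold 0 of the 42 passed in either library, beside 1.13% of measured genes lower and 0.879% higher in siSTAU1 and 1.22% lower and 2.71% higher in siUPF1. Both comparisons share the siControl library, so a high or low siControl value enters both.

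Single genes showed small differences. CLSPN was the lowest in siSTAU1 at -0.52 and had -0.57 in siUPF1, with counting SE of 0.04 in both, and RFC1 was the lowest in siUPF1 at -0.58, with -0.32 in siSTAU1. Against Nondifferentiation RFC1 is nearly level in siUPF1, since it stood at 10.54 there and 10.55 in Nondifferentiation, and siControl was the high library at 11.12. POLA1 had -0.51 in siUPF1 and -0.26 in siSTAU1, and MCM6 had -0.47 and -0.20. On the other side RPA2 had 0.46 in siUPF1 and 0.21 in siSTAU1, RFC2 had 0.37 and 0.03, POLE had 0.34 and -0.05, and GINS3, the highest in siSTAU1 at 0.27, had -0.10 in siUPF1. In siUPF1 32 of the 49 differences were below 0, beside 7815 of the 15387 genes above 0 in both libraries, with a median of -0.10 over the 49. In siSTAU1 26 of the 49 were, beside 7568 of 15386, which is about the same share.

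By role the differences were as small. In siUPF1 the 5 licensing genes were all slightly negative, from CDC6 at -0.31 to ORC1 at -0.03, and the 4 nucleotide supply genes all slightly positive, from RRM1 at 0.01 to TK1 at 0.22. In siSTAU1 the helicase activation genes ran from CLSPN at -0.52 to GINS3 at 0.27. For scale, the quartiles of all measured genes were -0.17 and 0.16 in siUPF1 and -0.14 and 0.15 in siSTAU1. The summed level of epithelial markers, given above, was highest in siSTAU1. That of the blood markers was 269 in siSTAU1, 98.2 in siUPF1 and 101 in siControl. Their part in these small differences was not tested.

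In the lists outside the 49 no measured replication, signature or mitotic gene differed by 2-fold in either knockdown. Of 36 measured other replication factors 0 were 2-fold different in either knockdown, with medians of -0.10 in siSTAU1 and -0.12 in siUPF1. Their lowest were RECQL4, a helicase, at -0.46 in siSTAU1 and RNASEH2B at -0.77 in siUPF1, and their highest were TIPIN at 0.47 in siSTAU1 and DTYMK, the thymidylate kinase, at 0.42 in siUPF1. The 20 signature genes outside the 49 had medians of -0.12 in siSTAU1 and -0.13 in siUPF1, with 16 and 14 of the 20 below 0, and the 20 mitotic genes had -0.0037 and -0.017. Of 17 measured genes of the RB and E2F axis 0 were 2-fold different in either knockdown, with medians of 0.032 in siSTAU1 and -0.015 in siUPF1. Among them CDKN1A had 0.47 in siSTAU1 and 0.94 in siUPF1, from 9.83 in siControl. It stood at 10.30 in siSTAU1 and 10.77 in siUPF1, both below its 11.66 in Nondifferentiation.

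The control siRNA library was set against Nondifferentiation to show how far the 2 reference libraries lie apart. Of the 42 measured genes 0 were 2-fold lower or higher, beside 0.433% of measured genes lower and 0.144% higher, with a median of 0.10. Of the 49 genes 37 stood higher in siControl, beside 7770 of the 15527 genes above 0 in both libraries, led by PRIM1 at 0.62, RFC1 at 0.57 and POLE2 at 0.56, and the lowest was POLE at -0.31. The labels list retinoic acid for Nondifferentiation and none for siControl, and transfection also differs, so these cannot be told apart. CDKN1A stood at 9.83 in siControl and 11.66 in Nondifferentiation, a difference of -1.83. With siControl as the reference for Differentiation, 39 of the 42 genes were 2-fold lower, beside 12.1% of measured genes, and the median was -2.05.

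**Figure D4:**
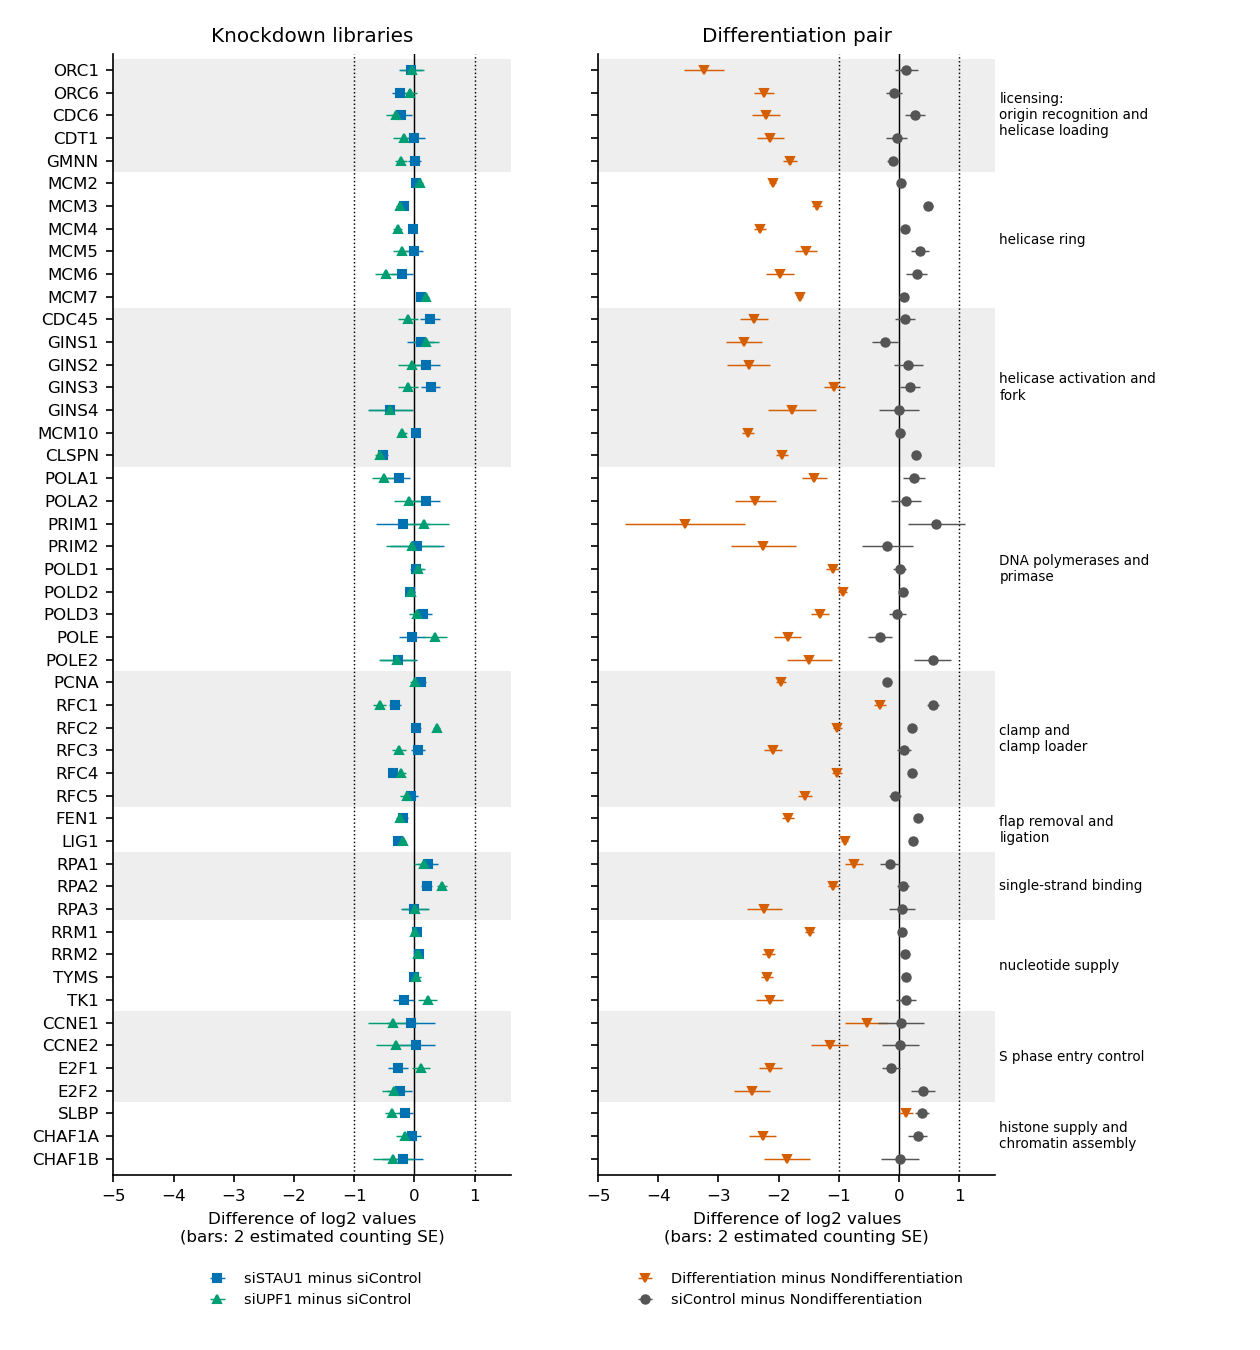
Difference of log2 values (x axis) for each of the 49 genes (rows, grouped by role), with siSTAU1 and siUPF1 against siControl on the left and Differentiation and siControl against Nondifferentiation on the right; bars are 2 estimated counting SE and dotted lines mark 2-fold. Every point on the left lies inside the dotted lines, and 43 of the 49 Differentiation points on the right lie past the lower one.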

How the data were processed

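Each deposited file gives a log2 value per gene symbol, which the authors had brought to a common distribution: the highest value was 18.01 in each library and the upper quartile 8.63 to 8.64. This is the pattern of quantile normalization, an inference from the values. Per the submitters' processing notes, Bowtie2, edgeR and hg19 were used, in unstated roles. Strand use, gene annotation and read counter: not given in the sources used here. Libraries came from total RNA by a Lexogen QuantSeq kit, per the labels' protocols.

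Differences of the deposited log2 values were taken in 4 comparisons. A gene was measured when its mean over the 5 libraries was at or above 7.81. Reads were estimated from the spacing of the 10th to the 50th lowest distinct value, and counting SE from those reads. The same spacing was applied to all genes of a library. Depths, and the reads and counting SE of higher genes, are thus extrapolated from low values. No test was run, since each group had 1 library. The steps were also run on simulated libraries that held counting error only. That run set no pass mark, and its outcome is not given here. The 49 genes, the other lists and the 2-fold threshold were chosen with earlier results of these data known. All 49 were named, with values by library at least for the lowest and highest of each role, and of the other lists up to the 2 highest and 2 lowest measured genes; ORC2, ORC3, ORC5, POLD4, RRM2B, RNASEH2A, E2F3, E2F4, E2F7, CCND1, RB1 and CDKN1A fall outside this rule and were named after their values were seen. Marker lists for noradrenergic, epithelial, mesenchymal and blood cells were summed in linear units. Promoter windows came from RefSeq GRCh38.p14. Overlaps and pseudogenes were read from GENCODE 29, by gene name only. Python 3.11.15, numpy 2.4.6, pandas 2.3.3 and matplotlib 3.10.9 were used.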

Additional observations from a re-analysis of the deposited data

How the results depend on the processing

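Each count and median was recomputed with other filters, scalings, thresholds and references, and 90 of 97 recomputed values lay close to those reported: within 1.5 times for a count, and within the median counting SE of a gene for a median. Most of these 90 were counts of 0 that stayed at 0, which say little: a count of 0 cannot rise at a stricter threshold. All 7 values that lay farther off were medians. For Differentiation against Nondifferentiation the median was -1.86 with no filter, -1.33 when centred on ribosomal protein genes and -2.05 with siControl as reference, where it was -1.96 as reported. The count of lower genes, at 2-fold unless stated, ran from 25 to 43, beside 37 of 42 as reported. The lowest count was 25 of 29 genes that have no overlapping gene at the last exon and no named pseudogene. That alternative was chosen after seeing the data. As a share of the genes read, the lowest was 26 of 42, both when centred on ribosomal protein genes and at a 3-fold threshold. The siUPF1 median of -0.093 became 0.025 when centred on ribosomal protein genes and 0.018 with Nondifferentiation as reference, so its sign depends on these choices. The siSTAU1 median of -0.0044 became 0.067 with Nondifferentiation as reference. The siControl median against Nondifferentiation of 0.10 became 0.028 when centred on ribosomal protein genes. Ribosomal protein genes had medians of -0.12 in siUPF1 and 0.074 in siControl against Nondifferentiation. No paired analysis was possible because each group had 1 library. Of the 49 genes 16 share sequence or an exon with another gene: 9 overlap a gene on the other strand, 1 on the same strand and 8 have named pseudogenes. In each of the 4 comparisons the counting SE was largest for PRIM1 or PRIM2, and the spread between cultures is unknown.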

Other observations

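The E2F letters were also more common among lower genes outside the 49. Of 670 measured genes that were 2-fold lower in Differentiation, are not among the 49 and have a RefSeq window, 79 held a match (11.8%), beside 394 of 5805 genes that were not 2-fold lower (6.79%). Of 39 other replication factors with a window 13 held one (33.3%), of 16 mitotic genes 2 (12.5%) and of 17 genes of the RB and E2F axis 3 (17.6%). The CHR letters were in 153 of the 670 (22.8%) and 777 of the 5805 (13.4%).

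Subunits of the same complex were lowered by different amounts in Differentiation. ORC1 and ORC6 had log2 differences of -3.24 and -2.24 while ORC2 and ORC4 had -0.16 and 0.26, RNASEH2A and RNASEH2B had -2.19 and -2.41 while RNASEH2C had 0.29, and RPA3 had -2.24 while RPA1 had -0.75. In polymerase delta POLD4 had 2.54 from about 120 reads in Nondifferentiation and 1178 in Differentiation, where POLD1, POLD2 and POLD3 had -1.11, -0.94 and -1.31. POLD4 was also higher in both knockdown libraries than in siControl, by 0.95 in siSTAU1 and 0.78 in siUPF1, from about 84 reads in siControl, and its mean of 7.66 lies below the floor for measured genes. These sets were named after their values were seen.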
